A study of Mus musculus with 95 samples.

Results

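The 34 genes described here mark the oligodendrocyte lineage and its myelin: Mbp, Mog, Mag, Mobp, Cnp, Cldn11, Ermn, Opalin, Tspan2, Mal, Pllp and Hapln2 for sheath and sheath-associated proteins, Fa2h, Ugt8a, Gal3st1 and Aspa for myelin lipid and acetate metabolism, the connexin genes Gjb1 and Gjc3, the transcription factor genes Myrf, Nkx6-2, Sox10, Olig1 and Olig2, Pdgfra, Cspg4, Gpr17, Enpp6 and Bcas1 for precursors and newly formed cells, and Trf, Ppp1r14a, Enpp2, Cryab, Adamts4 and Evi2a. They were chosen by gene symbol, with earlier results of these data known, and are 34 of the 55401 genes in the count table. The study measured polyadenylated RNA by bulk RNA-seq in white adipose tissue (WAT), liver, kidney and cortex of mice kept for 3 months in a torpor-like state (TLS), of control mice and of mice taken at time-0. The series title names blood epigenetic aging and healthspan, and these libraries address gene expression in solid tissues. In torpor an animal lets its metabolic rate and its body temperature drop.

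All animals were C57BL/6J mice, an inbred laboratory strain. The labels do not spell out Stim; it is read here as the TLS mice, since the protocol names time-0, control and TLS animals and the labels T0, Con and Stim, and every TLS value rests on that reading. TLS mice (Stim) and control mice (labelled Con) were 205 days old after the 3 months, and time-0 mice (labelled T0) were 122 days old. A group had 8 animals (4 with the sex label F, 4 with M), and each animal gave 1 library per tissue, except that 1 control library of WAT was not analysed here. The letters F and M stand under a cell line tag and are read as sex. For time-0 animals T0_4 and T0_5 the kidney libraries carry M and F, while their other libraries carry F and M; each library was fitted with its own letter. How TLS was brought about, and what the control mice received in its place, is not stated in the labels used here. TLS and control animals were of one age. Time-0 animals were younger, so age and the months of housing cannot be told apart in comparisons with them.

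Oligodendrocytes wrap axons of the central nervous system in myelin, a lipid-rich membrane that speeds conduction. They arise from precursor cells that carry the receptor PDGFRA and the proteoglycan NG2 (Cspg4), pass through a short newly formed stage marked by Enpp6, Bcas1 and Gpr17, and then make sheath proteins and galactolipids under the control of SOX10, OLIG2 and MYRF. New oligodendrocytes continue to form in the adult mouse cortex, and myelin there goes on accumulating through early adult life. In bulk tissue, fewer cells of a type and less RNA per cell cannot be told apart.

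Total counts per cortex library ran from 14299369 to 22962145, and all 34 genes passed the low-count filter in cortex. The labelled tissue fitted its markers as far as the lineage goes: Mog, Ermn, Opalin, Hapln2 and Olig2, which mark the oligodendrocyte lineage, averaged 53.6, 52.0, 21.0, 30.7 and 30.5 CPM (read counts scaled to library size) in time-0 cortex. In the time-0 kidney, liver and WAT they averaged at most 0.0130 CPM. The cortex libraries also held markers of neighbouring tissue in unequal amounts. The summed level of 10 striatal neuron markers ran from 327 to 1656 CPM at time-0, 217 to 1299 CPM in controls and 601 to 2209 CPM after TLS. That of 10 choroid plexus markers ran from 198 to 1035 CPM, 313 to 1661 CPM and 203 to 1634 CPM in the same order. The choroid plexus list includes the member Enpp2, which averaged 255 CPM of a mean sum of 450 CPM at time-0. Ttr, another marker of that list, ran from 1.64 to 1138 CPM over the cortex libraries. In both lists 0 of 10 markers were at 0 in all libraries of a group. Their part in the results was not tested.

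Per length of annotated exon, Mbp, a main structural protein of compact myelin, stood highest of the 34 genes, at 195, 240 and 315 CPM per kilobase in time-0, control and TLS cortex. Trf, the iron carrier transferrin, followed at time-0 with 88.1 CPM per kilobase, then Mobp, another protein of compact myelin, with 86.1 and Cnp, an enzyme of the non-compact cytoplasm of myelin, with 82.9. After TLS Mobp stood second at 152 CPM per kilobase. The lowest level per length was that of Enpp6, at 1.07 CPM per kilobase at time-0, with 79 to 256 raw counts in each cortex library. Summed over the 34 genes, libraries lay at 4046 to 5071 CPM at time-0 (median 4709.9), 4542 to 6498 CPM in controls (5124) and 5094 to 9665 CPM after TLS (6917). The TLS libraries were thus the most spread: B4B9 (9665 CPM), B51B (8799 CPM), DDF3 (7847 CPM) and E46E (7522 CPM) lay above every control library, and the other 4, with B23B lowest (5094 CPM), lay within the control range.

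P-values set each difference against the spread between these animals, estimated over all libraries of a fit. The first comparison asked what TLS changed relative to controls of the same age. In cortex, 11 of the 34 genes were higher after TLS and 0 were lower, where a call is an adjusted p below 0.05 in edgeR. Of all 16609 genes tested, 2.99% were higher and 2.42% lower. The members' median log2 fold change was 0.32, against 0.00 over all genes tested, and 30 of 34 were above 0. The members were chosen with earlier results of these data known. Contrasts with all genes, here and below, are therefore descriptions. The largest rises were in Ugt8a (1.93-fold), Enpp6 (1.62-fold) and Mal (1.55-fold). The ranges of TLS and control libraries overlapped in all 34 genes, so that 0 were fully separated, against 0.12% of all genes with TLS wholly above control and 0.138% wholly below. In Ugt8a, Fa2h, Enpp6, Bcas1 and Evi2a 8 of 8 TLS libraries exceeded the mean of controls with the same sex label.

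**Figure D1:**
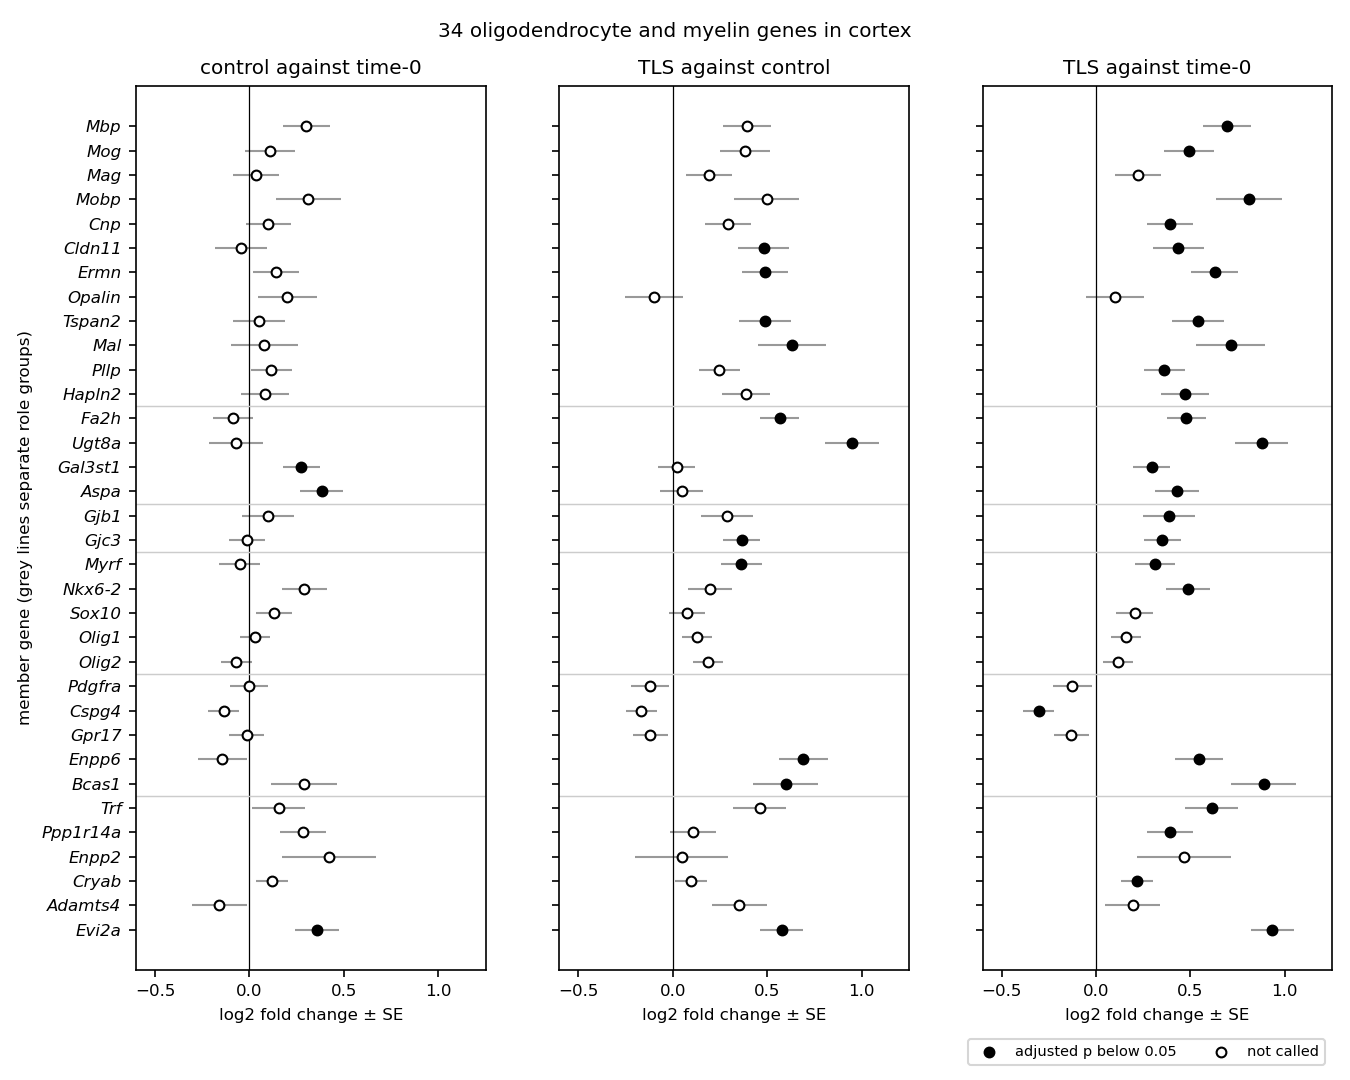
Log2 fold change with its SE (x axis) of each of the 34 genes (y axis, in role groups separated by grey lines) for 3 cortex comparisons, from edgeR fits of 24 libraries. Filled points are called at an adjusted p below 0.05. In TLS against control the 11 filled points are all to the right of 0, and Ugt8a lies farthest out at 0.95; Pdgfra, Cspg4 and Gpr17 lie left of 0.

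Ugt8a and Fa2h, whose enzymes act in the synthesis of the galactolipids of myelin, both rose. Ugt8a (chr3:125865271-125938619, minus strand, GRCm38) encodes the transferase that joins galactose to ceramide. It lay at 28.2 to 36.6 CPM at time-0 (median 31.6), 24.4 to 42.00 CPM in controls (28.7) and 41.9 to 84.8 CPM after TLS (55.7). Its log2 fold change of TLS against control was 0.95 ± 0.142 (SE; adjusted p = 0.00163), and the lowest TLS library sat level with the highest control library. Fa2h (chr8:111345135-111393824, minus strand) encodes the hydroxylase that adds the hydroxyl group to the fatty acids of these lipids. It lay at 34.3 to 41.9 CPM at time-0 (median 36.5), 29.3 to 42.8 CPM in controls (35.4) and 39.2 to 68.9 CPM after TLS (54.03), a rise of 0.57 ± 0.105 (SE; adjusted p = 0.00437). Gal3st1, whose product adds sulphate to galactosylceramide to give sulphatide, stood at 0.02 ± 0.0980, not called (adjusted p = 0.926). Neither was Aspa, which frees acetate from N-acetylaspartate, at 0.05 ± 0.114 (0.844). In this group of 4, therefore, 2 rose and 2 did not pass the test.

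Of the 12 sheath and sheath-associated genes, 4 rose: Mal, Tspan2, Ermn and Cldn11. Mal encodes a raft protein of the myelin membrane and lay at 153 to 191 CPM at time-0 (median 181), 156 to 245 CPM in controls (189) and 173 to 525 CPM after TLS (279.9), a rise of 0.63 ± 0.180 (SE; adjusted p = 0.0440). Tspan2, a tetraspanin, lay at 81.7 to 104 CPM at time-0 (median 90.4), 75.8 to 121 CPM in controls (95.5) and 83.7 to 214 CPM after TLS (125), a rise of 0.49 ± 0.138 (SE; adjusted p = 0.0401). TLS libraries reached far above the controls in both genes but also down into their range. Ermn, a cytoskeletal protein of late myelination, lay at 44.1 to 59.4 CPM at time-0 (median 50.1), 46.1 to 78.6 CPM in controls (55.9) and 56.2 to 104 CPM after TLS (83.1), a rise of 0.49 ± 0.123 (SE; adjusted p = 0.0248). Cldn11, the claudin of the tight junctions between myelin lamellae, lay at 112 to 141 CPM at time-0 (median 120.5), 101 to 142 CPM in controls (114) and 105 to 258 CPM after TLS (177), a rise of 0.48 ± 0.137 (SE; adjusted p = 0.0426). The median over the 12 genes was 0.39. Opalin, a sialylated membrane protein of oligodendrocytes, was the single one below 0, at -0.10 ± 0.154 (adjusted p = 0.750).

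The 2 genes with the highest level per length in TLS cortex were not called in this comparison. Mbp lay at 1369 to 1870.1 CPM at time-0 (median 1666), 1569 to 2538 CPM in controls (1907) and 1923 to 3332 CPM after TLS (2616), with a log2 fold change of 0.39 ± 0.126 (SE; adjusted p = 0.0660). Mobp lay at 459 to 698 CPM at time-0 (median 581), 556 to 1011 CPM in controls (644) and 681 to 1665 CPM after TLS (983), with 0.50 ± 0.173 (SE; adjusted p = 0.0905). In Mbp 7 of 8 and in Mobp 6 of 8 TLS libraries were above the control mean of their sex label, and the ranges overlapped. Mog, a glycoprotein of the outer sheath surface, was at 0.38 ± 0.132 (adjusted p = 0.0855) and Hapln2, a link protein at nodes of Ranvier, at 0.39 ± 0.127 (0.0677). The others were Cnp at 0.29 ± 0.121 (0.148), Pllp, which encodes plasmolipin, at 0.25 ± 0.107 (0.169), and Mag, an adhesion protein of the inner sheath, at 0.19 ± 0.122 (0.370).

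Connexins couple oligodendrocytes to astrocytes and join the layers of a sheath. Gjc3, which encodes connexin 29, lay at 37.6 to 49.8 CPM at time-0 (median 42.8), 37.5 to 51.9 CPM in controls (41.5) and 42.4 to 67.5 CPM after TLS (57.2), a rise of 0.37 ± 0.0969 (SE; adjusted p = 0.0280). Gjb1, which encodes connexin 32, stood at 0.29 ± 0.138, not called (adjusted p = 0.214). Among the 5 transcription factor genes Myrf rose. It drives the myelin program of maturing cells and lay at 53.5 to 67.6 CPM at time-0 (median 56.9), 51.6 to 62.8 CPM in controls (58.1) and 49.6 to 107 CPM after TLS (73.5), a rise of 0.36 ± 0.108 (SE; adjusted p = 0.0479); 6 of 8 TLS libraries were above the control mean of their sex label. The lineage factors did not pass the test: Olig2 was at 0.19 ± 0.0801 (adjusted p = 0.161), Olig1 at 0.13 ± 0.0785 (0.336), Sox10 at 0.07 ± 0.0958 (0.690) and Nkx6-2 at 0.20 ± 0.115 (0.319).

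Of the 5 genes of precursors and newly formed cells, 2 rose. Enpp6 (chr8:46986887-47096762, plus strand) encodes a choline phosphodiesterase that is made in cells beginning to myelinate. It lay at 5.30 to 7.81 CPM at time-0 (median 6.96), 5.25 to 7.40 CPM in controls (6.09) and 7.24 to 14.2 CPM after TLS (9.58), a rise of 0.69 ± 0.128 (SE; adjusted p = 0.00412). Bcas1, a marker of early myelinating cells, lay at 92.8 to 145 CPM at time-0 (median 112), 103 to 199 CPM in controls (133) and 146 to 357 CPM after TLS (189.7), a rise of 0.60 ± 0.172 (SE; adjusted p = 0.0458). In Enpp6 the lowest TLS library lay just below the highest control library. In Bcas1 TLS libraries reached well into the control range. The other 3 had log2 fold changes below 0 and were not called: Pdgfra -0.12 ± 0.102 (adjusted p = 0.515), Cspg4 -0.17 ± 0.0822 (0.223) and Gpr17, a G protein-coupled receptor of committed precursors, -0.12 ± 0.0923 (0.476). Pdgfra is also made by fibroblast-like cells and Cspg4 by pericytes.

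Of the 6 remaining genes only Evi2a rose. Evi2a (chr11:79526560-79530609, minus strand) encodes a membrane protein and sits inside an intron of Nf1. Its level was 12.4 to 15.3 CPM at time-0 (median 14.5), 13.9 to 29.95 CPM in controls (17.1) and 22.4 to 32.9 CPM after TLS (27.2), a rise of 0.58 ± 0.113 (SE; adjusted p = 0.00660). Control D215 was high at 30.0 CPM, so the ranges overlapped. The annotated Evi2 gene shares exons with Evi2a on the same strand, so reads of the pair could have been split or lost in counting. Trf was at 0.46 ± 0.140 (adjusted p = 0.0552), Adamts4, a metalloproteinase of oligodendrocytes, at 0.35 ± 0.145 (0.148), Ppp1r14a, a phosphatase inhibitor, at 0.11 ± 0.121 (0.649), Cryab, a small heat shock protein, at 0.10 ± 0.0851 (0.532) and Enpp2, the lysophospholipase autotaxin, at 0.05 ± 0.248 (0.935). Enpp2 is also strong in choroid plexus. Across the 24 cortex libraries, centred within group and sex label, it ran with the mean of 9 other choroid plexus markers at r = 0.817, a description of libraries that share both tissues.

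**Figure D2:**
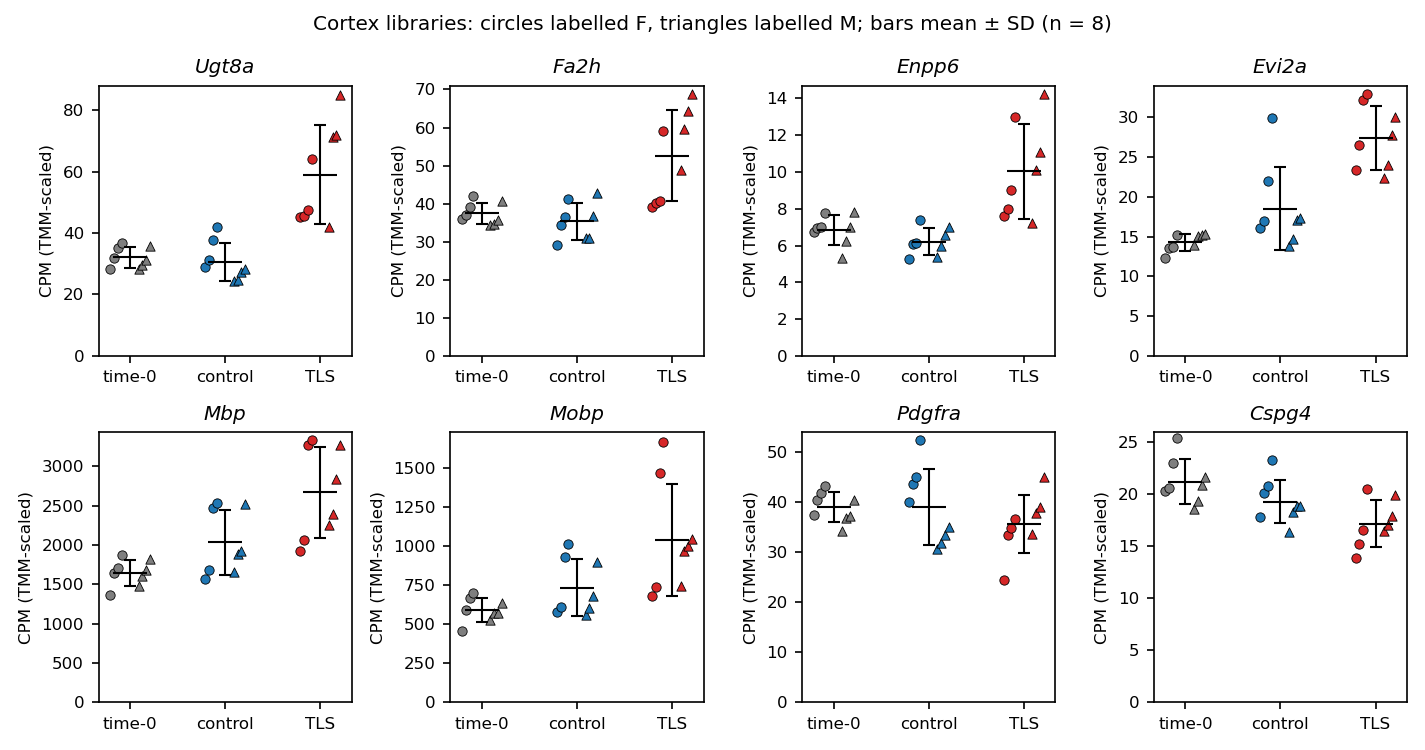
TMM-scaled CPM (y axis, from 0) of 8 of the genes in each of the 24 cortex libraries by group (x axis), with circles for F, triangles for M and bars for the mean and SD of 8 libraries. Ugt8a, Fa2h, Enpp6 and Evi2a sit higher in TLS than in most control libraries, Mbp and Mobp spread widely within TLS, and Pdgfra and Cspg4 do not rise.

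How many members were called moved with single libraries. The count of 11 went to 18 without TLS library B23B. It went to 4 without TLS library E46E or control 5A66, to 5 without B4B9, 9BA4 or E329, to 6 without B51B, DDF3, 983B, A367 or 9916 and to 7 without A5DA. The share of all genes called in each of these fits is not given here. Whether the members moved apart from the other genes was not tested. Ugt8a, Fa2h, Enpp6 and Evi2a kept their call in all 16 fits that left out 1 library, while Myrf lost it in 13, Cldn11, Tspan2 and Mal in 11, Bcas1 in 10, Gjc3 in 5 and Ermn in 3.

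Meg3, Neat1 and Malat1 are long noncoding RNAs that stay in the nucleus, and their combined share of a library moved with the groups. It was 0.540 ± 0.0480% at time-0 (SD, n = 8), 0.311 ± 0.0960% in F and 0.613 ± 0.0463% in M controls (n = 4 each), and 0.273 ± 0.0441% in F and 0.268 ± 0.0475% in M TLS libraries (n = 4 each). With this share as a covariate 0 of the 34 genes were called in edgeR, and of all genes tested 2 were called. In that fit 9 of the 34 had an unadjusted p below 0.05, and the number over all genes is not given here. The members' median log2 fold change was then 0.19. Within F, where the share of control and TLS libraries overlapped, the median was 0.22. Across the 24 libraries, centred within group and sex label, the members' mean ran with the log2 share at r = -0.37. The part of this share in the result was not tested.

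**Figure D3:**
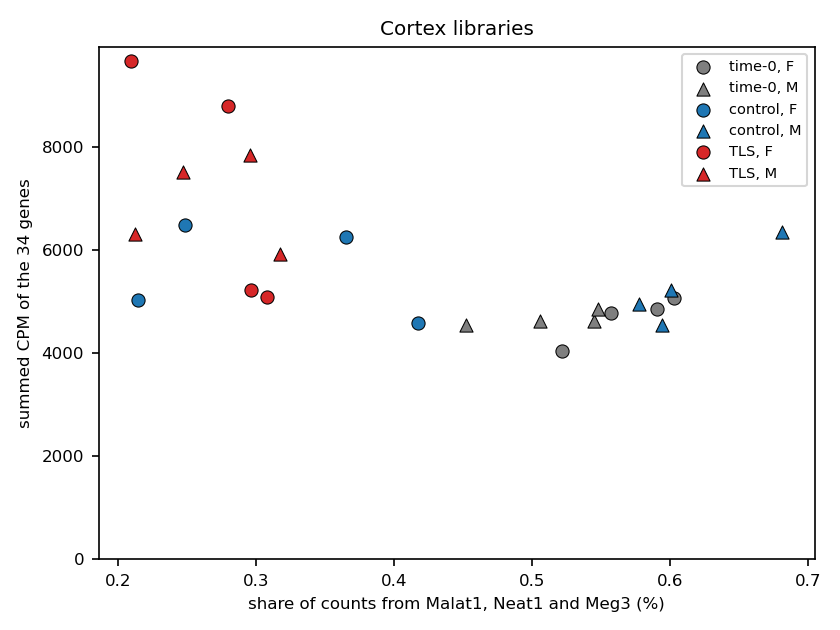
Summed CPM of the 34 genes (y axis, from 0) against the combined percentage of Meg3, Neat1 and Malat1 among counts (x axis) in the 24 cortex libraries, by group and sex label. All TLS libraries have shares of 0.209 to 0.318%, M control and time-0 libraries lie at 0.452% or above, and F control libraries lie between 0.214 and 0.417%.

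Other lists place these values. Of 30 further genes of mature oligodendrocytes 2 rose and 0 fell, Hhip (0.59 ± 0.156, adjusted p = 0.0275) and Elovl7, a fatty acid elongase (0.35 ± 0.104, 0.0458). Their median was 0.17, and Klk6, a secreted protease (0.69 ± 0.221, 0.0596), and Il33, an alarmin cytokine (0.35 ± 0.119, 0.0774), were not called. Of 18 further genes of precursors and newly formed cells Tns3, a focal adhesion protein of early myelinating cells, rose (0.34 ± 0.0826, 0.0179), with a list median of 0.08. Of 20 genes of cholesterol synthesis, which supplies myelin membrane, 0 were called, 4 had an unadjusted p below 0.05 and the median was 0.02. Of these Dhcr7 was at -0.19 ± 0.0624 (0.0733) and Stard4 at 0.22 ± 0.0787 (0.0981). Over all 16609 genes tested in TLS against control, 3745 had an unadjusted p below 0.05.

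Markers of other cell types moved beside the members. Of 12 microglia markers 8 rose and 0 fell, with Ctss at 0.74 ± 0.139 (adjusted p = 0.00694); their summed level was 389 to 472 CPM at time-0, 448 to 599 CPM in controls and 566 to 927 CPM after TLS. Of 12 astrocyte markers 5 rose, with Slc1a3 at 0.36 ± 0.0825 (0.0136), and their sum was 4508 to 5353 CPM, 4716 to 6501 CPM and 5818 to 7170 CPM in the same order. Of 12 excitatory neuron markers 0 were called in edgeR and 2 had an unadjusted p below 0.05, and of 10 inhibitory neuron markers Npy and Vip rose. Of 8 tested Schwann cell markers, which would come from peripheral nerve, 1 rose, Pmp22 (0.45 ± 0.0749, 0.00193), and 1 or 2 of the list's markers were at 0 in all libraries of a group. In the microglia and astrocyte lists 0 were. Of 12 endothelial and mural markers 0 were called in edgeR (2 with an unadjusted p below 0.05), and of 10 striatal and 10 choroid plexus markers 0 each (0 unadjusted), with medians of 0.52 and -0.31. The part of other cell types in the members' result was not tested.

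Members that rose together can be compared in the sequence before their start sites. RefSeq promoter windows on GRCm38.p6, from 250 bases before to 50 bases after a start, were at hand for 22 of the 34 genes, in 30 windows. Those of the 3 genes with the smallest p among them in TLS against control are shown, each of 300 bases: Ugt8a at chr3:125938603-125938902 on the minus strand, Enpp6 at chr8:46986637-46986936 on the plus strand and Ermn at chr2:58052815-58053114 on the minus strand. They are printed in lower case, with capitals where the letters ACAAAG or ACAATG, short matches to the SOX consensus, occur on the strand shown. The same search took in the reverse strand, the letters CTGGCAC and CTGGTAC for MYRF, and CAGCTG and CAGATG, E-box letters that the OLIG factors can bind.
Ugt8a: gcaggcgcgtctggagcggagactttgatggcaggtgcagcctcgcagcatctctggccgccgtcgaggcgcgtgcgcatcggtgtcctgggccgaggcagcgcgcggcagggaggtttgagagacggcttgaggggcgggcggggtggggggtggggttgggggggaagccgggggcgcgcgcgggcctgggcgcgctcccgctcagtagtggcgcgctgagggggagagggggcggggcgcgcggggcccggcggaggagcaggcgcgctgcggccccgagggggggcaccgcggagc
Enpp6: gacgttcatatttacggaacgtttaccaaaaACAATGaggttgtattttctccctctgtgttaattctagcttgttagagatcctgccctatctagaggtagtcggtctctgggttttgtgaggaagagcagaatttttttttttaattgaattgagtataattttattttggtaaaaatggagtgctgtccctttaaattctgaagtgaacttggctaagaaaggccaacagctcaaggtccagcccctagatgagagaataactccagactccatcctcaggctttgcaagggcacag
Ermn: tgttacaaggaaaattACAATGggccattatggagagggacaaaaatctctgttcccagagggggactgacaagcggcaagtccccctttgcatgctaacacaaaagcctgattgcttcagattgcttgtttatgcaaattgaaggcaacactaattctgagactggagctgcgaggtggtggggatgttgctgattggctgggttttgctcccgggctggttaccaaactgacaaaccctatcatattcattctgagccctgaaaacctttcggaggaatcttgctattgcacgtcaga
The Enpp6 window holds ACAATG from 219 bases before its start and the Ermn window from 234 bases before. The Ugt8a window holds none of the 3 motifs. Over the 30 windows, 14 (46.7%) held SOX letters, against 28.6% of all 32851 windows, and 6 (20%) held MYRF letters, against 7.10%. E-box letters were in 7 (23.3%), against 30.6%. These shares cover all members with a window, whether they rose or not. The windows with MYRF letters belonged to Cnp, Hapln2, Mag, Mog and Opalin, which were not called in TLS against control. Among the called members, SOX letters stood in windows of Enpp6, Ermn and Tspan2. Some genes have more than 1 window, so these shares are descriptions, and letters in a window are not evidence of binding.

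The second comparison followed controls from time-0 over the 3 months. Of the 34 genes 3 were higher in controls and 0 lower, against 10.8% of all genes higher and 10.5% lower, and the median was 0.10 (0.00 over all genes). The 3 were Aspa (0.38 ± 0.115, adjusted p = 0.0184), Evi2a (0.36 ± 0.115, 0.0274) and Gal3st1 (0.27 ± 0.0989, 0.0461). Aspa lay at 11.3 to 14.9 CPM at time-0 (median 12.4), 11.95 to 22.5 CPM in controls (17.2) and 12.9 to 24.7 CPM after TLS (16.8), and Gal3st1 at 9.86 to 13.6 CPM at time-0 (median 12.3), 12.3 to 19.2 CPM in controls (13.9) and 11.5 to 18.7 CPM after TLS (14.6). In both the groups overlapped. Ugt8a and Fa2h were at -0.07 ± 0.143 and -0.09 ± 0.105 here and were not called. The share of all genes called was larger than the members' share in both directions. The count of 3 was 0 without control D215 and 1 without control 9916 or time-0 animal T0_2. It was also 0 when the fit took in the nuclear RNA share, where 17.3% of all genes were called, and 1 in limma with quality weights, where 18% were.

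The third comparison set TLS mice against time-0. It shares its libraries with the other comparisons, so the values stand side by side and are not independent. Of the 34 genes 24 were higher after TLS and 1, Cspg4, was lower, against 18.1% of all genes higher and 17.6% lower. The median was 0.41, and 31 of 34 were above 0. By role, 10 of 12 sheath genes, all 4 lipid and acetate genes, both connexins, 2 of 5 transcription factor genes, 2 of 5 precursor and newly formed genes and 4 of 6 other genes were higher. Evi2a (0.93 ± 0.114, adjusted p = 1.52e-06), Bcas1 (0.89 ± 0.173, 0.000479), Ugt8a (0.88 ± 0.141, 5.54e-05), Mobp (0.81 ± 0.174, 0.00111) and Mbp (0.70 ± 0.127, 0.000195) were among the largest. In Mbp, Ugt8a, Bcas1 and Evi2a every TLS library lay above every time-0 library, 4 of 34 genes against 3.20% of all genes.

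Besides Mbp and Mobp, 9 members were called higher in this one alone of the 3 comparisons of whole groups. Mog lay at 50.2 to 57.3 CPM at time-0 (median 53.8), 47.01 to 67.98 CPM in controls (56.7) and 49.6 to 105 CPM after TLS (79.2), and rose by 0.49 ± 0.132 (adjusted p = 0.00572). Cnp lay at 267 to 335 CPM at time-0 (median 299.5), 269 to 373 CPM in controls (318) and 280.1 to 606 CPM after TLS (388), and rose by 0.39 ± 0.121 (0.0135). Trf lay at 247 to 339.8 CPM at time-0 (median 298), 266 to 384 CPM in controls (326) and 313 to 707 CPM after TLS (434), and rose by 0.61 ± 0.140 (0.00170). In these 3 genes TLS libraries overlapped with time-0. Nkx6-2, a homeodomain factor of mature oligodendrocytes, lay at 9.83 to 14.8 CPM at time-0 (median 12.2), 12.1 to 21.2 CPM in controls (14.3) and 13.3 to 21.6 CPM after TLS (17.5), and rose by 0.49 ± 0.116 (0.00171). Hapln2 lay at 27.6 to 34.6 CPM at time-0 (median 30.6), 23.1 to 39.7 CPM in controls (32.7) and 29.2 to 73.6 CPM after TLS (42.3), and rose by 0.47 ± 0.127 (0.00529). Pllp lay at 42.3 to 51.3 CPM at time-0 (median 47.7), 42.2 to 60.2 CPM in controls (52.8) and 43.3 to 80.1 CPM after TLS (58.8), and rose by 0.36 ± 0.108 (0.0103). These too overlapped with time-0. Gjb1 lay at 10.9 to 15.1 CPM at time-0 (median 13.7), 10.6 to 17.7 CPM in controls (14.1) and 11 to 29.05 CPM after TLS (17.6), and rose by 0.38 ± 0.138 (0.0306). Ppp1r14a lay at 14.6 to 23.9 CPM at time-0 (median 17.4), 14.5 to 28.4 CPM in controls (22.7) and 17.5 to 31.05 CPM after TLS (22.96), and rose by 0.39 ± 0.121 (0.0136). Cryab lay at 70.7 to 109.8 CPM at time-0 (median 91.6), 78.5 to 120.2 CPM in controls (95.2) and 87.8 to 119 CPM after TLS (106), and its rise of 0.22 ± 0.0852 (0.0472) was the smallest that was called.

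Cspg4, the precursor proteoglycan, was the member that fell. It lay at 18.6 to 25.4 CPM at time-0 (median 20.8), 16.4 to 23.3 CPM in controls (18.9) and 13.8 to 20.5 CPM after TLS (16.8), a log2 fold change of -0.30 ± 0.0818 (SE; adjusted p = 0.00473) from time-0, and 0 of 8 TLS libraries were above the time-0 mean of their sex label. The groups still overlapped. Pdgfra was at -0.12 ± 0.101 and Gpr17 at -0.13 ± 0.0923, neither called (adjusted p = 0.353 and 0.275). The other 7 members that did not pass were Mag (0.22 ± 0.122), Opalin (0.10 ± 0.155), Sox10 (0.20 ± 0.0958), Olig1 (0.16 ± 0.0785), Olig2 (0.12 ± 0.0800), Enpp2 (0.47 ± 0.249) and Adamts4 (0.19 ± 0.144). When the fit took in the nuclear RNA share, 3 of 34 genes were called, 2 higher and 1 lower, against 4.86% of all genes in either direction. Of the 30 further mature oligodendrocyte genes 14 rose and 0 fell, and of 12 microglia markers 12 rose. Of 12 astrocyte markers 9 rose and 0 fell, and of 12 excitatory neuron markers 1 rose and 4 fell. Of 10 choroid plexus markers, Enpp2 among them, 2 rose and 0 fell, with a median of 1.40. In control against time-0, 4 of these 10 rose and 0 fell, with a median of 1.71. The part of these lists in the members' result was not tested.

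Within a group and sex label, libraries rich in one sheath gene were rich in most others. Across the 24 cortex libraries, centred within group and sex label, Cldn11 ran with the mean of the other 33 members at r = 0.954, Mog at 0.950 and Cnp at 0.947. At the other end were Pdgfra (-0.13), Cspg4 (0.07) and Gpr17 (0.09), and Hapln2 (0.46) and Ugt8a (0.49) were the loosest of the sheath and lipid genes. The closest pairs were Mag with Trf (0.981) and Cnp with Cldn11 (0.979). Mbp and Mobp, whose mRNAs are carried into the cell processes and translated at the sheath, ran closely with each other (0.929) and with Bcas1 (0.960 and 0.921), and less with Mag, Trf, Cnp, Cldn11 and Mog (0.662 to 0.797). These 8 genes were picked after the correlations were seen. All values share library, depth and dissection and are given as a description.

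The response of the members by sex label was compared in a fit with 1 mean per group and sex label. Within F 0 of 34 genes were higher and 1, Pdgfra, was lower, against 0.235% and 0.199% of all genes. An unadjusted p below 0.05 was found in F for 10 of the 34 members and for 2005 of all 16609 genes. Within M 8 were higher and 0 lower, against 7.65% and 8.90%: Ugt8a, Enpp6, Fa2h, Evi2a, Ermn, Adamts4, Hapln2 and Gjc3. The medians were 0.22 in F and 0.42 in M, and 25 of 34 genes were above 0 in both. Adamts4 lay at 18.3 to 26.7 CPM at time-0 (median 22.99), 16.2 to 27.3 CPM in controls (19.9) and 17.3 to 43.7 CPM after TLS (24.5), over both sex labels. A call in one sex label and not in the other does not show a difference, and the test of the difference itself called 2 members, Pdgfra and Ugt8a, both higher in M than in F, against 2.37% of all genes higher and 2.71% lower.

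Pdgfra fell in F. There its control libraries were at 43.7, 52.6, 39.98 and 45.0 CPM and its TLS libraries at 24.5, 34.9, 36.6 and 33.4 CPM, which did not overlap. In M the controls were at 31.8, 30.6, 33.6 and 35.1 CPM and the TLS libraries at 45.0, 39.0, 37.9 and 33.7 CPM, which did. The log2 fold changes were -0.49 ± 0.105 in F (SE; adjusted p = 0.0390) and 0.25 ± 0.106 in M (0.107), and their difference was 0.74 ± 0.149 (0.00698). At time-0 F libraries lay at 37.5 to 43.2 CPM and M libraries at 34.3 to 40.4 CPM, which overlapped, while the F and M controls did not. Both separations of Pdgfra rest on 4 libraries a side, and the share of all genes so separated is not given here.

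The log2 fold change of Ugt8a was 0.53 ± 0.159 in F (adjusted p = 0.138, not called) and 1.37 ± 0.162 in M (2.63e-05), a difference of 0.84 ± 0.226 (0.0335). In F the controls were at 29.1, 37.8, 42.0 and 31.3 CPM and the TLS libraries at 45.3, 63.9, 45.4 and 47.5 CPM. In M the controls were at 28.2, 27.4, 24.7 and 24.4 CPM and the TLS libraries at 71.4, 41.9, 84.8 and 71.9 CPM. Within each sex label every TLS library lay above every control library, with 4 libraries in each group. The share of all genes separated in this way within a sex label is not given here. M controls had the lowest mean level of Ugt8a and the highest mean nuclear RNA share. With that share as a covariate Pdgfra was still called lower in F, 0 members were called in M (1 with an unadjusted p below 0.05), and neither difference was called (0.62 for Pdgfra, adjusted p = 0.257, and 0.55 for Ugt8a, 0.517).

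The number of calls by sex label also depended on single libraries. The difference kept Pdgfra in all 16 fits that left out 1 library. It lost Ugt8a without TLS library 47BE, B03E, B23B, B51B, DDF3 or E46E and without control 5A66, 9BA4, A123, D215 or E329, which left 1 call, and without B4B9 it gave 5. In F the count was 0 without 983B, A123, B03E or B51B and 2 without D215. In M it was 5 without 5A66, E329 or E46E. The striatal neuron markers summed to 217 to 1299 CPM in F controls, 857 to 2209 CPM in F TLS, 899 to 1257 CPM in M controls and 601 to 855 CPM in M TLS libraries. Their part in the result was not tested.

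**Figure D4:**
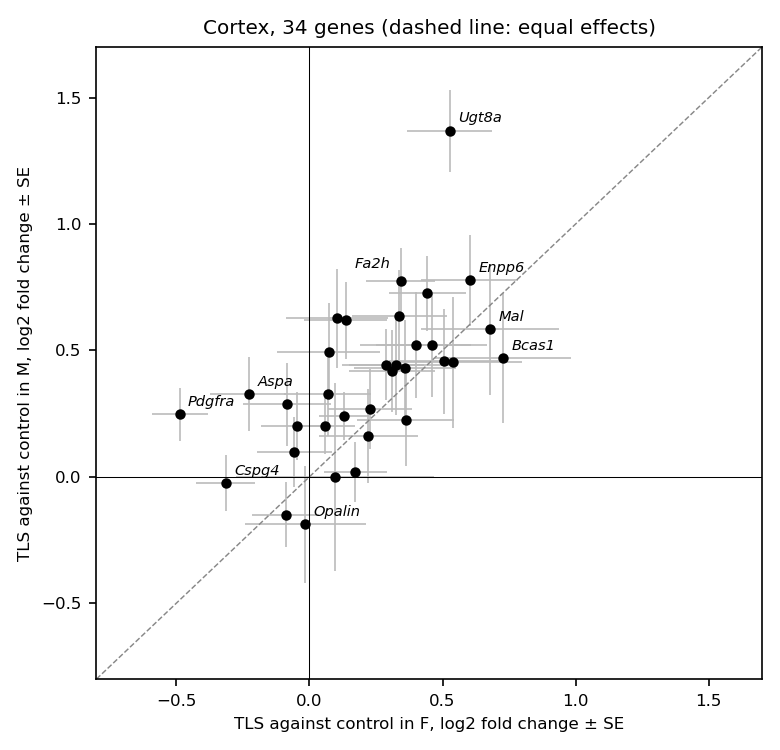
Log2 fold change of TLS against control with its SE in F (x axis) and M (y axis) for the 34 genes in cortex, with 4 libraries per group and sex label; the dashed line marks equal effects. Ugt8a (0.53 and 1.37) and Pdgfra (-0.49 and 0.25) lie above the line, and 25 genes lie above 0 on both axes.

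Several members are not restricted to oligodendrocytes. At time-0, 23 of the 34 genes had their highest mean level in cortex, 6 in kidney (Mal, Pllp, Gal3st1, Aspa, Enpp6 and Cryab), 2 in liver (Gjb1 and Trf) and 3 in WAT (Pdgfra, Cspg4 and Enpp2). Trf averaged 10993 CPM in liver, which secretes transferrin, against 293 CPM in cortex. Enpp6 averaged 139 CPM in kidney and 6.84 CPM in cortex, and Gjb1 589 CPM in liver and 13.4 CPM in cortex. The mean level of Ugt8a was close in cortex (32.1 CPM) and kidney (30.0 CPM). Its time-0 kidney libraries, however, ran from 2.20 to 86.7 CPM (median 18.3). Means of Myrf were close in cortex (59.4 CPM) and WAT (58.2 CPM), where time-0 libraries ran from 25.8 to 95.3 CPM. CPM was scaled within each tissue.

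**Figure D5:**
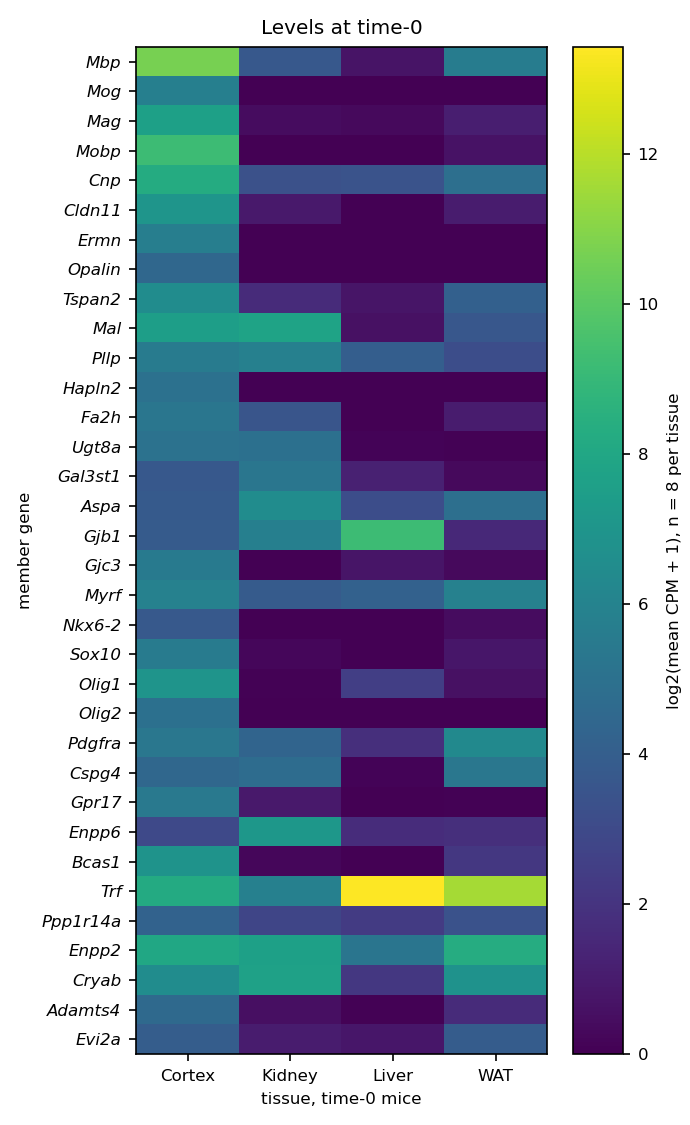
Mean level of each of the 34 genes (rows, in role order) in 4 tissues of time-0 mice (columns), as log2(mean CPM + 1) by colour, with 8 libraries per tissue. Most sheath genes are bright in cortex alone, Trf is brightest in liver (10993 CPM), and Mal, Aspa and Enpp6 are also bright in kidney.

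In the other tissues the filter kept 22 of the 34 genes in kidney, 18 in liver and 23 in WAT. TLS against control gave 0 calls among them in edgeR in each tissue, against 0.231%, 1.95% and 0.00596% of all genes. Unadjusted p-values below 0.05 were found for 2, 4 and 0 members. Over all genes they were found for 1353 of 16005, 2383 of 13604 and 1857 of 16784 in the same order. DESeq2 called 0, 1 and 0 members, against 0.631%, 4.56% and 1.05% of all genes. Limma with quality weights called 1, 2 and 0, against 2.41%, 8.69% and 0% of all genes. The liver gene called by both was Olig1, at -1.32 ± 0.419 in edgeR (adjusted p = 0.0953), limma added Mal in liver, and the kidney gene was Gpr17. Ugt8a and Enpp6, which rose in cortex, were at -0.09 ± 0.240 (adjusted p = 0.932) and -0.08 ± 0.184 (0.915) in kidney, where both are made.

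A joint fit tested the cortex effect minus the mean of the other 3. For Mog, Ermn, Olig2, Opalin, Hapln2, Nkx6-2 and Gpr17 it gave no usable standard error, so these 7 could not be called. Most of these have almost no counts outside cortex. Gpr17 did reach 9 to 25 raw counts in TLS kidney libraries, and Nkx6-2 up to 20 in control WAT. Of the other 27 members 0 were called in edgeR, against 0.0191% of all genes. An unadjusted p below 0.05 was found for 2134 of all 20888 genes and for 3 of these members. Several of those are also scarce outside cortex and imprecise. Tspan2 had the smallest p, with a difference of 0.76 ± 0.227 (adjusted p = 0.198). It also gave 0 calls with the animal as replicate block, and limma with quality weights called Evi2a and Tspan2, both higher in cortex, beside 4.82% of all genes.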

How the data were processed

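RNA was measured by poly(A)-selected RNA-seq in 95 libraries. The values are raw counts per gene as deposited by the authors. STAR 2.7.10, DESeq2, DESeq, mm10 and GRCm38 are named in the submitters' processing notes. Per the file headers the counts are called corrected; what was corrected, the annotation and the strand setting of the counting are not given in the sources used here. Members of overlapping gene pairs could therefore share or lose reads.

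Each tissue was scaled (TMM) and fitted with edgeR 4.0.16 (R 4.3.3) by its quasi-likelihood test over 3 groups with the sex label as a covariate, after filterByExpr with a minimum count of 10. P-values were adjusted by Benjamini-Hochberg over all genes tested, with a threshold of 0.05. CPM are TMM-scaled. Log2 CPM for correlations used a prior count of 2. The sex difference came from a fit with 1 mean per group and sex label, and the tissue difference from a joint fit. Alternatives were DESeq2 1.42.0, limma 3.58.1 voom with quality weights, other scaling, filters and covariates, and leaving out each library. On simulated counts for TLS against control in cortex (16463 genes), 32.0% of 1.25-fold, 70.0% of 1.5-fold and 92.0% of 2-fold changes were recovered.

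Total counts were 14299369 to 22962145 in cortex, 8217875 to 28337864 in kidney, 4031533 to 29269511 in liver and 15881766 to 29089492 in WAT. No 2 cortex libraries of a group were identical. All libraries carry 1 batch label; library numbers in the labels separate TLS from control, so library order and TLS cannot be told apart. The members and lists were chosen with earlier results of these data known. Lowest, median and highest values are given for members called in a cortex comparison and for those highest per length, and of other lists up to 4 genes with the smallest p were candidates for naming. Gene positions and exon lengths are from GENCODE on GRCm38, and promoter windows from RefSeq on GRCm38.p6. The promoters of 12 members were not used here.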

Additional observations from a re-analysis of the deposited data

Results flagged for a closer look

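In 105 groups of 8 libraries, 5 held a library set apart from the rest, where chance gives about 1 in 20 groups. At time-0 Opalin was high in T0_2 at 27.8 CPM (nearest library 20.8 CPM), Mal was low in T0_4 at 153 CPM (177 CPM) and Gal3st1 was low in T0_1 at 9.86 CPM (11.7 CPM). Sox10 was low in control 5A66 at 39.7 CPM (50.1 CPM). Gpr17 was low in TLS library A5DA at 24.1 CPM (35.8 CPM).

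The TLS effect differed between the sex labels in Pdgfra, with a log2 difference of 0.74 (adjusted p = 0.00698 in edgeR), and in Ugt8a, with 0.84 (0.0335), both higher in M. The mean nuclear RNA share was 0.311% in F and 0.613% in M controls, and 0.273% and 0.268% in F and M TLS libraries. Its part was tested only as a covariate, with which neither difference was called, and that of the striatal markers was not tested.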

How the results depend on the processing

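No direction of a called value turned under any alternative run. Leaving out 1 library at a time gave 4 to 18 calls among the members in TLS against control (11 with all libraries), 0 to 4 in control against time-0 (3), 21 to 25 in TLS against time-0 (25), 1 to 5 in the sex difference (2), 0 to 2 in F (1), 5 to 10 in M (8) and 0 to 1 in liver (0, with 1 without B03E). With the nuclear RNA share as covariate the counts were 0, 0, 3 and 0 in the first 4 and 0 in M; for the sex labels this was chosen after seeing the data. Without a low-count filter TLS against control gave 5 calls and the sex difference 1, and with only the 2 groups TLS against control gave 4. In the same comparison DESeq2 called 15 members and limma voom 13, against 8.24% and 6.89% of all genes. DESeq2 gave 2 in F and 1 in liver, against 1.83% and 4.56% of all genes. Limma voom gave 1 in control against time-0, 5 in the sex difference, 13 in M, 1 in kidney, 2 in liver and 2 in the tissue difference. The shares of all genes called by limma were 18%, 10.7%, 24%, 2.41%, 8.69% and 4.82% in that order. With only the libraries of 1 sex label, F gave 0 and M 13. Cortex minus liver alone and cortex minus WAT alone each gave 1. Shares of all genes called are not given here for these fits. Nor are they given for the fits without 1 library, without the low-count filter or with only the 2 groups. The animal as replicate block in the tissue difference gave 0; same-animal libraries had a mean correlation of deviations of 0.0456, against -0.0151 for other animals. The causes were not tested. Depth limits Enpp6 most, at 79 to 256 counts per cortex library.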
